A study of Sus scrofa with 207 samples.

Results

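CXCL2, ZFP36 and SOCS3 are 3 genes of the inflammatory response and its feedback, 3 of 6765 genes that a probe set of their own represented on the array. They were chosen from measured values, namely the slope of expression on drip loss, so their relation to drip loss is given here as a description without a test. Each gene had 1 probe set that the array annotation assigns to it alone, among 23935 probe sets tested. NCBI gene numbers in that annotation are 414904 for CXCL2, 100316849 for ZFP36 and 493186 for SOCS3. The data are 207 Affymetrix Porcine Genome Arrays, 1 for each of 207 crossbred pigs, hybridised with RNA from muscle collected when the animals were slaughtered at a mean end weight of 110 kg. All animals belonged to 1 commercial herd of the cross the labels write as Pix(DLxDE), with no treatment and no control group. The labels as used here give neither age nor sex, and name the tissue only as muscle. Each animal carried up to 2 measured traits. Drip loss is the weight that a piece of longissimus muscle gives off as fluid during cold storage, in percent, and averaged 5.37 ± 2.22% (SD, n = 207). Fat area is the area of fat on the same muscle at the ribs and averaged 15.0 ± 3.15 cm2 (SD, over the 207 animals less 8 with no fat area in the labels).

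CXCL2 is a secreted chemokine that draws neutrophils to injured or infected tissue, and its transcription rises quickly after inflammatory signals or cell stress. ZFP36, also called tristetraprolin, is an RNA-binding protein that attaches to AU-rich elements of short-lived messenger RNAs, many cytokine and chemokine messages among them, and speeds their decay. SOCS3 is an inhibitor of JAK-STAT signalling that is induced by cytokines of the interleukin-6 family and shuts off their receptors. ZFP36 and SOCS3 are therefore taught as negative feedback genes, and ZFP36 is also induced within minutes by growth factors and stress together with the immediate early genes.

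The arrays differed little in their centre, with medians between 5.96 and 6.18 log2 units. The 10 measured skeletal muscle markers were among the brightest genes, with mean values between 12.7 for DES and 14.1 for MYH2. Of 15 neutrophil markers 7 were measured, and their means lay between 4.47 for S100A12 and 5.99 for S100A9, 0 of 7 above the mean of the median probe set (6.10). The 8 measured macrophage markers lay between 6.22 and 9.47. On 24 arrays the typical correlation with the rest of the arrays fell short, the lowest at 0.944, beside 0.978 for the median array, and 13 arrays lacked the signal of the spike-in controls. Sample titles carry numbers in a higher series (33 animals, over 1000) and a lower series (all others), and what the numbers mark is not stated.

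CXCL2 and ZFP36 were among the genes that varied most between these pigs, while SOCS3 was not. The chemokine CXCL2 had a lowest value of 5.78, a median of 7.26 and a highest value of 9.25 log2 units over the 207 animals. Its mean was 7.29 ± 0.68 (SD), and the highest animal stood 11.1-fold above the lowest. The decay factor ZFP36 had a lowest value of 7.74, a median of 9.65 and a highest value of 11.91. Its mean was 9.72 ± 0.93 (SD), and the highest animal stood 18-fold above the lowest. By eye both histograms had a single broad hump, and a separate cluster of high or low animals was not tested for.

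The signalling inhibitor SOCS3 had a lowest value of 4.60, a median of 5.23 and a highest value of 5.90. Its mean was 5.25 ± 0.23 (SD), a 2.46-fold range. By SD, 99.3% of the 6765 genes varied less than ZFP36, 98.1% less than CXCL2 and 40.4% less than SOCS3, beside a median SD of 0.25 over all genes. The SOCS3 probe set was dim, since 12.8% of genes had a probe set with a lower mean. Whether the dim signal narrowed its spread was not tested. None of the 3 probe sets had an animal at the floor of the deposited values (4). Values of different probe sets are not comparable as amounts of RNA, so only the spread of each gene is set beside another. In whole muscle, fewer cells of a type and less RNA per cell cannot be told apart. Whether the CXCL2 probes also bind messages of related chemokines was not tested.

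**Figure D1:**
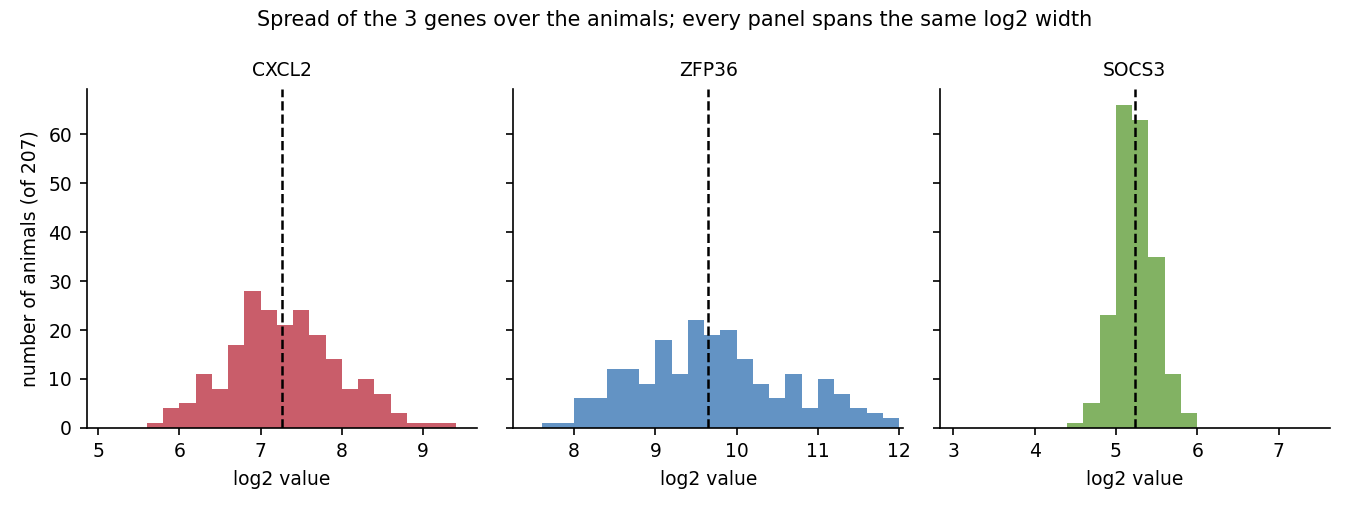
Number of animals (vertical axis) by log2 value (horizontal axis, bins of equal width) for CXCL2, ZFP36 and SOCS3, with the median as a dashed line and the same log2 width in every panel. CXCL2 and ZFP36 spread over 3.47 and 4.17 log2 units, and SOCS3 over 1.30.

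The 3 genes tended to be high and low in the same animals, and CXCL2 with ZFP36 had the highest correlation of the 3 pairs. Of the 52 animals with the highest CXCL2, 23 were also among the 52 with the highest ZFP36, and 30 animals were among the lowest 52 of both. In the 2 genes 6 animals were in opposite extremes, top of one and bottom of the other. Over all animals Pearson's r between CXCL2 and ZFP36 was 0.491 and Spearman's rho 0.512 (n = 207). Both had a permutation p of 1e-05, two-sided, which is the smallest that 100000 permutations can give, and 1.5e-05 after Benjamini-Hochberg adjustment over the 3 pairs. Both genes were chosen by their slope on drip loss, which by itself makes them co-vary. With drip loss removed from both, r was 0.411 (permutation p = 5e-05, the smallest that 20000 permutations can give, adjusted 7.5e-05).

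ZFP36 and SOCS3 also co-varied, with r = 0.358 and rho = 0.358 (permutation p = 1e-05 for each, adjusted 1.5e-05). Of the 52 animals highest in ZFP36, 27 were among the 52 highest in SOCS3, 21 animals were among the lowest 52 of both, and 10 were in opposite extremes. The pair CXCL2 and SOCS3 had the lowest correlation, r = 0.239 and rho = 0.276, with permutation p = 6.1e-04 and 1.1e-04 and the same values after adjustment. In that pair 17 animals were among the highest 52 of both and 19 among the lowest 52 of both, while 13 were in opposite extremes. All 3 genes were in the top quartile group in 11 animals and in the bottom quartile group in 15. With drip loss removed, r was 0.345 for ZFP36 with SOCS3 (adjusted permutation p = 7.5e-05) and 0.216 for CXCL2 with SOCS3 (adjusted permutation p = 0.0021).

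The correlations were also computed within parts of the herd. Without the 2 animals farthest from the median of the first gene, r was 0.489 for CXCL2 with ZFP36, 0.261 for CXCL2 with SOCS3 and 0.355 for ZFP36 with SOCS3. In each of 10 blocks of 100 title numbers all 3 correlations were positive. They ranged from 0.235 to 0.634 for CXCL2 with ZFP36, from 0.0063 to 0.345 for CXCL2 with SOCS3 and from 0.060 to 0.771 for ZFP36 with SOCS3, in blocks of 10 to 35 animals. CXCL2 and ZFP36 had r = 0.557 in the higher number series and 0.481 in the lower. CXCL2 and SOCS3 had r = -0.019 in the higher series (adjusted permutation p = 0.915, n = 33) and 0.277 in the lower, and the difference was not tested.

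The 2 pairs that include SOCS3 did not pass once variation shared by many genes was held constant. With the first 5 principal components of expression held constant, r was 0.292 for CXCL2 with ZFP36 (adjusted permutation p = 3e-04). It was 0.052 for CXCL2 with SOCS3 (adjusted permutation p = 0.453) and 0.078 for ZFP36 with SOCS3 (adjusted permutation p = 0.393). Those components held 19.4% of the variance of CXCL2, 48.2% of that of ZFP36 and 24.8% of that of SOCS3, beside a median of 30.4% over all genes. The low-correlation arrays had higher means of all 3 genes, 7.55 against 7.26 in the other arrays for CXCL2, 10.3 against 9.64 for ZFP36 and 5.34 against 5.23 for SOCS3. Without them r was 0.485 for CXCL2 with ZFP36, 0.271 for CXCL2 with SOCS3 and 0.372 for ZFP36 with SOCS3.

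**Figure D2:**
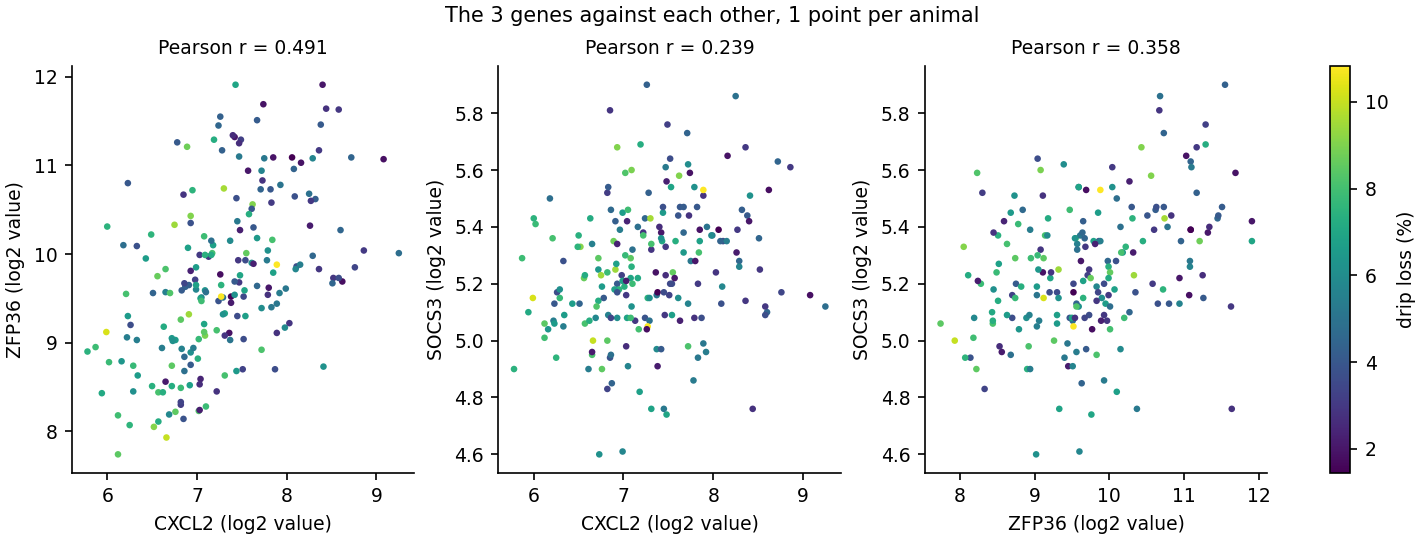
Log2 values of CXCL2, ZFP36 and SOCS3 against each other, 1 point per animal, coloured by drip loss in percent from dark (low) to yellow (high). The cloud of CXCL2 and ZFP36 is the narrowest (r = 0.491), and its upper right holds many animals with a low drip loss.

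The genes whose pattern over the animals was most like that of CXCL2 were immediate early genes and MAP kinase phosphatases. These correlations are descriptions over 207 animals whose arrays share quality and tissue makeup. DUSP1, a phosphatase that switches off MAP kinases, came first with r = 0.671. The transcription factor EGR1 followed with r = 0.666, the immediate early gene IER2 with 0.634 and FOS, a subunit of the AP-1 transcription factor, with 0.626. DUSP6, a phosphatase specific for ERK kinases, had r = 0.604, the vasodilator peptide ADM 0.574, the secreted protease ADAMTS1 0.537 and the transcription factor KLF4 0.506. With drip loss removed from both, 7 of these 8 were again the 8 highest, at r = 0.482 to 0.597. KLF4 then gave way to the heat shock co-chaperone DNAJB1, at 0.475. The lowest correlations with CXCL2 were those of the vesicle fusion protein STX10 (-0.397), UNC93B1, which carries Toll-like receptors to endosomes (-0.397), SWSAP1 (-0.386) and the phosphatase ACP1 (-0.361).

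ZFP36 followed the immediate early genes more closely still. FOS had r = 0.796 with ZFP36, EGR1 0.784, KLF4 0.770 and the transcription factor MYC 0.737. The stress-inducible GADD45B had r = 0.705, the leukocyte adhesion molecule ICAM1 0.704, the matricellular protein CYR61 0.702 and the matrix glycoprotein THBS1 0.674. EGR1, FOS and KLF4 were thus among the 8 highest of both CXCL2 and ZFP36. With drip loss removed 7 of the 8 were again the highest, and the glucose transporter SLC2A3 (r = 0.663) took the place of THBS1. The lowest correlations with ZFP36 were those of PIK3IP1, an inhibitor of PI3 kinase (-0.507), SWSAP1 (-0.480), ZNF3 (-0.475) and the Mediator subunit MED18 (-0.448). In the order of all 6764 other genes, ZFP36 was the 10th most like CXCL2, and CXCL2 the 67th most like ZFP36.

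SOCS3 had weaker neighbours, and of its 8 highest only THBS1 was also among the 8 highest of ZFP36. The highest correlations of SOCS3 were with CPEB4, a protein that regulates polyadenylation in the cytoplasm (0.462), AMY2 (0.442), the tyrosine phosphatase PTPN1 (0.438) and LPGAT1 (0.421). PTPN1 was read from its brightest probe set, and its dimmer ones had r of 0.096 and -0.035 with SOCS3. The RNA-binding protein SYNCRIP had r = 0.420 with SOCS3, the cyclin CCND2 0.415, THBS1 0.410 and FILIP1 0.407. Below these 8, EGR1 was the 10th most like SOCS3 (r = 0.395), CCL2 the 16th (0.389) and ZFP36 the 37th. With drip loss removed all 8 were again the highest. The lowest were CCDC127 (-0.451), SWSAP1 (-0.441), PITHD1 (-0.440) and KBTBD4 (-0.438), so SWSAP1 was among the lowest 4 of every one of the 3 genes. Among all other genes 61 had r over 0.5 with ZFP36, 9 with CXCL2 and 0 with SOCS3, and the shares with r over 0.3 were 4.01%, 1.08% and 1.89%. With 5 principal components held constant, r of the 8 neighbours lay between 0.061 (PTPN1) and 0.316 (SYNCRIP) for SOCS3. It lay between 0.327 (KLF4) and 0.599 (DUSP6) for CXCL2 and between 0.407 (THBS1) and 0.690 (FOS) for ZFP36. For the 4 lowest of CXCL2, r then lay between -0.359 (UNC93B1) and -0.069 (SWSAP1). For the 4 lowest of ZFP36 it lay between -0.112 (PIK3IP1) and 0.184 (SWSAP1), so the sign of SWSAP1 turned. For the 4 lowest of SOCS3 it lay between -0.265 (CCDC127) and -0.067 (SWSAP1).

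**Figure D3:**
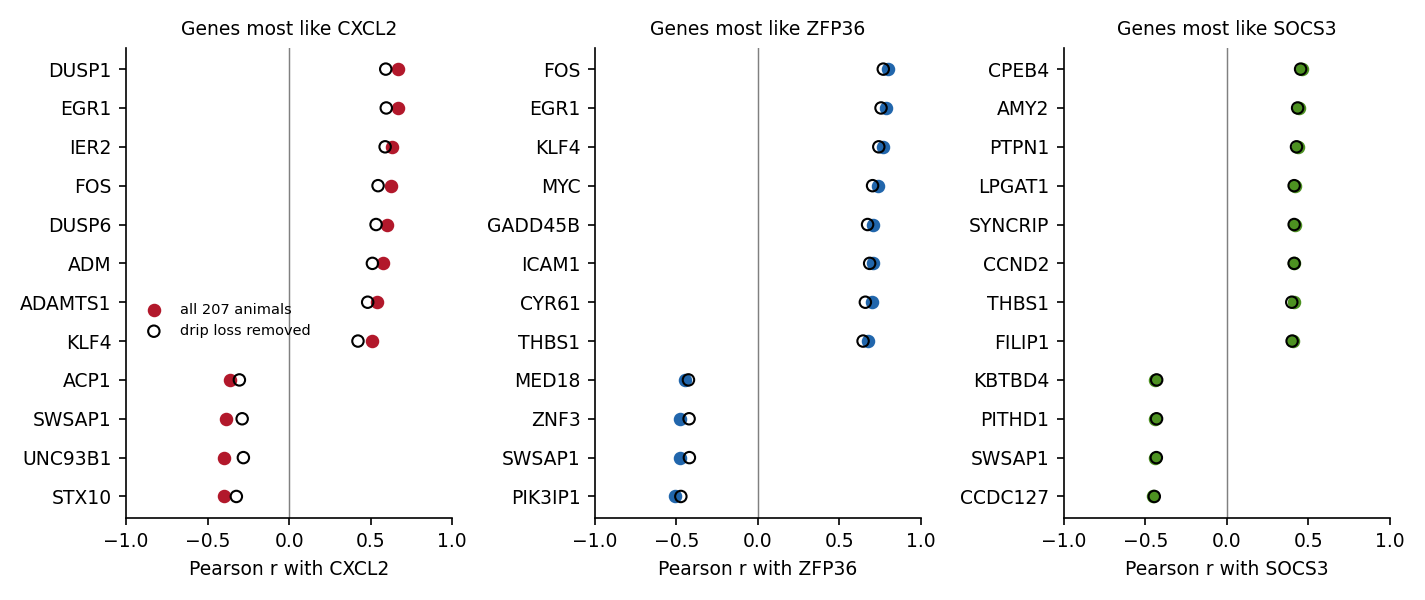
Pearson's r (horizontal axis) of the 8 most and 4 least similar genes with CXCL2, ZFP36 and SOCS3, over 207 animals (filled) and with drip loss removed from both genes (open). The highest r was 0.671 for CXCL2, 0.796 for ZFP36 and 0.462 for SOCS3, and removing drip loss moved the points of SOCS3 least.

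The pattern was set beside that of whole gene lists by averaging each list's genes per animal. The mean of 26 measured immediate early genes had r = 0.877 with ZFP36, 0.614 with CXCL2 and 0.375 with SOCS3. Of those 26 genes, 24 had r over 0.3 with ZFP36 and 18 with CXCL2. The mean of 19 genes of JAK-STAT signalling and the SOCS family had r = 0.647 with ZFP36, 0.354 with SOCS3 and 0.325 with CXCL2. Of its 19 genes 6 had r over 0.3 with ZFP36, 1 with SOCS3 and 2 with CXCL2. Within that list SOCS1, which like SOCS3 inhibits JAK kinases, had r = 0.632 with ZFP36, 0.350 with CXCL2 and 0.199 with SOCS3. STAT3, the transcription factor that induces SOCS3, had r = 0.443 with ZFP36, 0.278 with SOCS3 and 0.201 with CXCL2. The other 2 SOCS1 probe sets, both dimmer, had r between -0.0047 and 0.102 with the 3 genes.

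The other chemokines, taken as a list, varied little with CXCL2. The mean of 24 other chemokine and receptor genes had r = 0.117 with CXCL2, 0.285 with ZFP36 and 0.062 with SOCS3, and only CCL2 of the 24 had r over 0.3 with CXCL2. CCL2, which attracts monocytes, had r = 0.603 with ZFP36, 0.403 with CXCL2 and 0.389 with SOCS3. Of the chemokine genes that lie near CXCL2 in the RefSeq gene table of Sscrofa11.1, AMCF-II had r = 0.131 with CXCL2, CXCL8 0.097 and PPBP -0.091. CXCL8, itself a neutrophil chemokine, was at the floor in 34 animals and averaged 4.30, so little variation could be seen in it. IL6, an inducer of SOCS3, averaged 4.79 and had r = 0.165 with SOCS3, 0.261 with ZFP36 and 0.115 with CXCL2. NFKBIA, the inhibitor that NF-kB itself induces, had r = 0.027 with CXCL2, 0.189 with ZFP36 and -0.113 with SOCS3. The mean of the 15 NF-kB genes had r = 0.281 with CXCL2, 0.430 with ZFP36 and 0.147 with SOCS3, and in each case ICAM1 was the 1 gene of the 15 with r over 0.3.

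Marker lists of other cell types were averaged in the same way. The mean of the 7 neutrophil markers had r = 0.038 with CXCL2, 0.122 with ZFP36 and 0.016 with SOCS3, and its lowest and highest animals were at 4.65 and 5.83. The mean of the 8 macrophage markers had r = 0.050 with CXCL2, 0.164 with ZFP36 and 0.084 with SOCS3, over a range of 6.41 to 9.08. The adipocyte marker mean had r = -0.253 with ZFP36, -0.048 with CXCL2 and -0.112 with SOCS3. The lymphocyte marker mean had r = -0.229 with SOCS3 and -0.141 with CXCL2, and the red blood cell marker mean -0.207 with SOCS3. The endothelial marker mean had r = 0.038 with CXCL2, 0.00021 with ZFP36 and -0.111 with SOCS3, although 2 of its 12 genes had r over 0.3 with ZFP36, ENG among them at 0.310. The part that cell makeup plays in the levels of the 3 genes was not tested.

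CXCL2 and ZFP36 were lower in pigs whose meat lost more fluid, and SOCS3 showed next to no gradient. These values describe the contrast by which the genes were chosen. In the quartile group of animals with the lowest drip loss (1.45 to 3.58%, n = 52) CXCL2 had a lowest value of 6.65, a median of 7.50 and a highest value of 9.08. In the second quartile group (3.60 to 5.26%) these were 6.18, 7.50 and 9.25, and in the next (5.30 to 7.22%) 5.94, 7.07 and 8.41. In the quartile group with the highest drip loss (7.25 to 10.82%, n = 51) they were 5.78, 6.89 and 7.89. The group means were 7.66, 7.51, 7.14 and 6.84 in the same order, a decline through all 4 groups, and the groups overlapped. Of the 51 animals with the highest drip loss, 45 had less CXCL2 than the median animal of the lowest quartile group.

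ZFP36 was lower in the upper 2 groups than in the lower 2, with more overlap. Its lowest, median and highest values were 8.24, 9.84 and 11.91 in the quartile group with the lowest drip loss and 8.14, 10.05 and 11.55 in the second. They were 8.11, 9.45 and 11.91 in the third quartile group and 7.74, 9.14 and 11.29 in the highest. Of the 51 animals with the highest drip loss, 35 lay below the median of the lowest quartile group. SOCS3 had quartile group medians of 5.24, 5.34, 5.17 and 5.24 from the lowest drip loss to the highest, with no trend, and 24 of the 51 animals lay below that median. As a fold, the mean of the highest quartile group over that of the lowest was 0.565 for CXCL2, 0.622 for ZFP36 and 0.975 for SOCS3.

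Expressed per SD of drip loss (2.22%), the slope was -0.30 ± 0.042 log2 units for CXCL2 (SE, n = 207), a change of -18.9%. The slope was -0.30 ± 0.0605 for ZFP36, a change of -18.7%, and -0.024 ± 0.016 for SOCS3, a change of -1.64%. Pearson's r with drip loss was -0.443 for CXCL2, -0.322 for ZFP36 and -0.103 for SOCS3, and without the 2 animals farthest from the median of drip loss it was -0.468, -0.331 and -0.112. Over all probe sets limma called 1103 of 23935 for drip loss at an adjusted p under 0.05, 4.61%. Per gene this was 411 of 6765, 6.08%, of which 3.96% of genes rose and 2.11% fell with drip loss.

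The slope of CXCL2 was negative in 10 of 10 blocks of title numbers, from -0.48 to -0.17, and that of ZFP36 in 9 of 10, from -0.54 to 0.62. SOCS3 was negative in 6 of 10. In the higher number series the slopes were -0.32 ± 0.11 for CXCL2 and -0.46 ± 0.16 for ZFP36 (SE, n = 33), and in the lower series -0.30 ± 0.047 and -0.26 ± 0.067 (SE). The low-correlation arrays came from animals with less drip loss, 4.20 ± 1.55% (SD, n = 24), against 5.53 ± 2.25% in the others. Without them the slopes were -0.30 ± 0.044 for CXCL2, -0.27 ± 0.063 for ZFP36 and -0.015 ± 0.016 for SOCS3. With 5 principal components as covariates they were -0.24 ± 0.042 for CXCL2, -0.12 ± 0.049 for ZFP36 and 0.015 ± 0.015 for SOCS3, and the sign of SOCS3 turned.

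**Figure D4:**
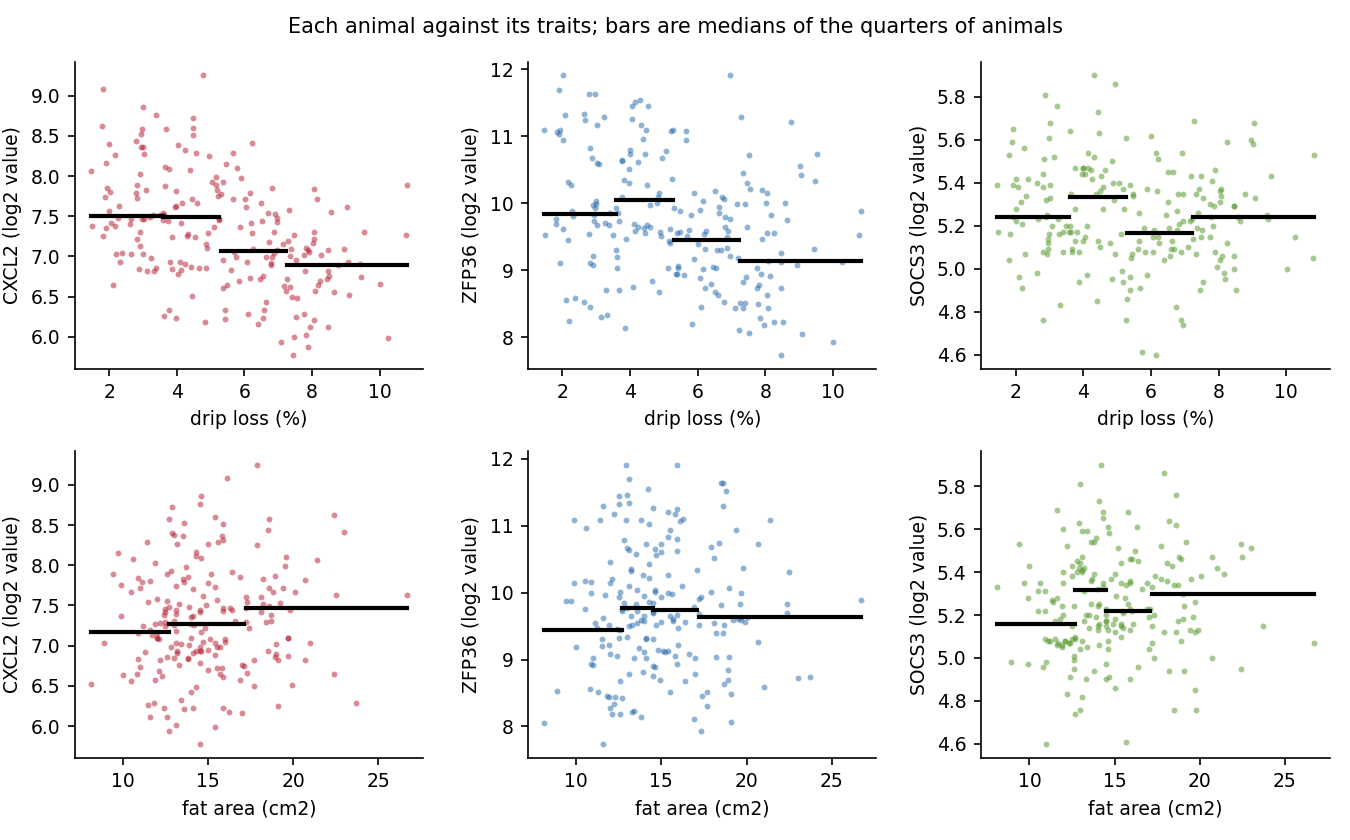
Log2 value of each gene (vertical axes) against drip loss in percent (top row, 207 animals) and fat area in cm2 (bottom row, animals with a fat area), with the median of each quartile group of animals as a black bar. Over drip loss the bars of CXCL2 lie at 7.50, 7.50, 7.07 and 6.89 from the lowest quartile group to the highest, and those of SOCS3 between 5.17 and 5.34.

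The gradient of each gene with drip loss was also fitted beside other genes, as a description. With ZFP36 in the same fit the slope of CXCL2 on drip loss was -0.22 ± 0.041, and with SOCS3 in the fit it was -0.29 ± 0.042. With the mean of the immediate early genes in the fit it was -0.16 ± 0.040, and FOS alone gave -0.16 ± 0.039. The slope of ZFP36 was -0.12 ± 0.0625 with CXCL2 in the fit. With the immediate early mean in the fit it was 0.041 ± 0.034, and that fit held 77% of the variance of ZFP36, against 10.4% for drip loss alone. With FOS in the fit it was -0.0046 ± 0.043. For SOCS3 the slopes beside CXCL2, ZFP36, FOS and that mean lay between 0.00074 and 0.014.

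The pathways around the 3 genes were read from 6 lists, with calls in limma adjusted over all probe sets. Of 24 measured chemokines and receptors 1 rose with drip loss and 0 fell. The riser was CCL5, which attracts T cells, with a slope of 0.076 ± 0.025 (SE, adjusted p = 0.04995). CCL2 had a slope of -0.20 ± 0.070 (adjusted p = 0.069), AMCF-II -0.063 ± 0.026 (adjusted p = 0.148) and CXCL8 -0.0017. Of 19 inflammatory cytokines and receptors 1 rose, the cytokine CSF2 (0.049 ± 0.014, adjusted p = 0.027), and 1 fell, the TNF receptor TNFRSF1A (-0.070 ± 0.023, adjusted p = 0.047). CSF2 averaged 4.49, close to the floor. IL6 had a slope of -0.029 ± 0.018 (adjusted p = 0.390). These lists had called shares of 4.17% and 10.5% beside 6.08% of all genes, and median slopes of 0.0013 and 0.00022 beside 0.0080.

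Of 15 genes of NF-kB signalling 1 fell and 0 rose, a share of 6.67% beside 6.08% of all genes called. The gene that fell was ICAM1, an NF-kB target that binds leukocytes, with -0.12 ± 0.035 (adjusted p = 0.035). NFKBIA had a slope of -0.062 ± 0.030 (adjusted p = 0.233). Of 19 genes of JAK-STAT signalling and the SOCS family 3 fell and 0 rose, 15.8% beside the same 6.08%. SOCS1 had a slope of -0.16 ± 0.049 (adjusted p = 0.032), PTPN1, which dephosphorylates JAK2, -0.11 ± 0.032 (adjusted p = 0.020) and STAT6, which transmits interleukin-4 signals, -0.072 ± 0.023 (adjusted p = 0.046). The other 2 probe sets of SOCS1 and the other 2 of PTPN1 were dimmer and did not pass, with slopes from -0.015 to 0.014. STAT3 had a slope of -0.034 ± 0.021 (adjusted p = 0.373).

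Of 25 genes of the ZFP36 family and of decay of AU-rich messages 2 fell and 0 rose, 8% beside 6.08% of all genes called. Those that fell were BTG2 (-0.20 ± 0.059, adjusted p = 0.032) and BTG1 (-0.078 ± 0.025, adjusted p = 0.042), antiproliferative proteins that bind the CCR4-NOT deadenylase. The median slopes of the 3 lists were -0.00096 for NF-kB, -0.015 for JAK-STAT and -0.013 for the decay list. In all 5 lists named so far 0 genes passed with blocks as a covariate, without the low-correlation arrays or with 5 principal components. Few of all genes passed in those settings either, 0.828%, 1.3% and 0.118% in the same order.

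The immediate early genes were the list with most falls. Of 26 measured, 16 fell with drip loss, 61.5% beside 2.11% of all genes, and 0 rose. All 26 slopes were negative, as were 2638 of 6765 over all genes, and the median was -0.13. The list was chosen with earlier results of these data known. FOS had a slope of -0.49 ± 0.078 (adjusted p = 7.6e-06), EGR1 -0.42 ± 0.067 (adjusted p = 9.5e-06), CYR61 -0.34 ± 0.050 (adjusted p = 8.9e-07) and DUSP1 -0.27 ± 0.039 (adjusted p = 4.8e-07). All 3 EGR1 probe sets fell, at -0.33, -0.37 and -0.42. The slopes of CXCL2 and ZFP36 thus lay within the range of this list, between CYR61 and DUSP1. With blocks as a covariate 11 of the 26 fell beside 0.828% of all genes called, and without the low-correlation arrays 12 fell beside 1.30%. With 5 principal components 5 fell beside 0.118%. Of 7 neutrophil, 8 macrophage and 11 lymphocyte markers 0 passed for drip loss, beside 6.08% of all genes called. The 11 lymphocyte slopes were all positive, as were 4127 of 6765 over all genes. Positive lymphocyte slopes numbered 10 with blocks, 9 without the low-correlation arrays and 10 with 5 principal components. The one marker that passed was ENG, of endothelial cells (-0.068 ± 0.022, adjusted p = 0.047). ENG did not pass with blocks (adjusted p = 0.203), without the low-correlation arrays (adjusted p = 0.139), with 5 principal components (adjusted p = 0.871) or after quantile normalization.

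**Figure D5:**
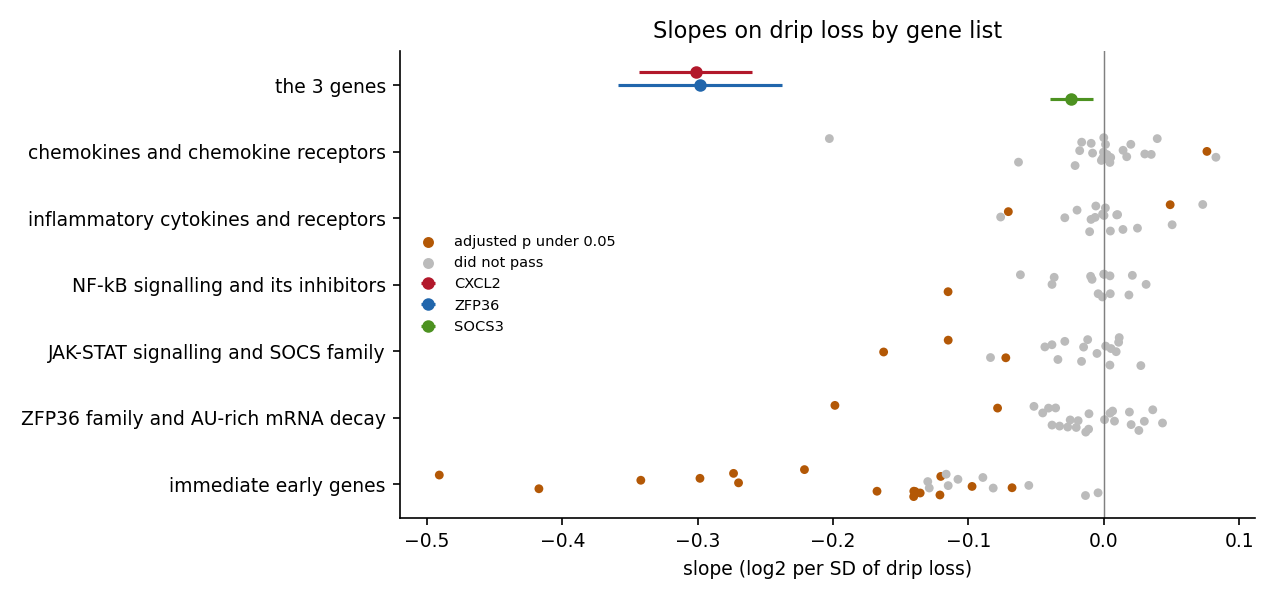
Slope on drip loss in log2 units per SD (horizontal axis) of CXCL2, ZFP36 and SOCS3, with SE bars, above the genes of 6 lists, 1 point per gene, orange where the adjusted p in limma was under 0.05. CXCL2 and ZFP36 lie among the immediate early genes (16 of 26 fell) and left of every gene of the other 5 lists, and SOCS3 lies close to 0.

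Fat area did not choose the genes and could be tested. None of the 3 passed for it. The slope per SD of fat area (3.15 cm2) was 0.064 ± 0.047 log2 units for CXCL2 (SE, 207 animals less 8, limma adjusted p = 0.832), with a 95% interval of -0.028 to 0.16. For ZFP36 it was 0.029 ± 0.065 (limma adjusted p = 0.965), with an interval of -0.099 to 0.16. For SOCS3 it was 0.019 ± 0.017 (limma adjusted p = 0.877), with an interval of -0.014 to 0.052. The unadjusted p-values were 0.172, 0.656 and 0.254. Over all probe sets 29 of 23935 passed, 0.121%, and per gene 10 of 6765, 0.148%. None of the 6 lists had a gene that passed for fat area.

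By quartile groups of fat area the median of CXCL2 was 7.18, 7.27, 7.27 and 7.47 from the leanest to the fattest animals, and its lowest and highest values were 5.94 and 8.29 in the leanest quartile group and 6.25 and 9.25 in the fattest. ZFP36 had medians of 9.45, 9.77, 9.74 and 9.63, and SOCS3 of 5.16, 5.32, 5.22 and 5.30. The quartile groups overlapped in each gene. Pearson's r with fat area was 0.096 for CXCL2, 0.031 for ZFP36 and 0.081 for SOCS3, with permutation p = 0.179, 0.663 and 0.256, or 0.384, 0.663 and 0.384 after adjustment over the 3 genes. Spearman's rho was 0.083, 0.042 and 0.113, with adjusted permutation p = 0.363, 0.554 and 0.336. Without the 2 animals farthest from the median of fat area, r was 0.116, 0.046 and 0.108, and with the blocks removed it was 0.063, -0.0097 and 0.064.

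A further test asked whether the gradient with drip loss differed between lean and fat animals. The product of drip loss and fat area had a coefficient of -0.061 ± 0.039 for CXCL2, -0.011 ± 0.058 for ZFP36 and -0.021 ± 0.016 for SOCS3 (SE, limma adjusted p = 1 for each). Over all probe sets 1 of 23935 passed, 0.00418%.

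For none of the 3 genes did the number series or the blocks pass, the only grouping of animals that the labels contain. CXCL2 averaged 7.31 ± 0.67 in the higher series (SD, n = 33) and 7.29 ± 0.68 in the lower (SD), a difference of 0.028 ± 0.13 (limma adjusted p = 0.919). ZFP36 averaged 9.97 ± 0.95 in the higher series and 9.67 ± 0.92 in the lower, a difference of 0.29 ± 0.17 (limma adjusted p = 0.270). SOCS3 averaged 5.24 ± 0.19 in the higher series and 5.25 ± 0.24 in the lower, a difference of -0.013 ± 0.044 (limma adjusted p = 0.881). Over all probe sets 12.8% passed for this difference. The 10 blocks held 8.96% of the variance of CXCL2 (limma F test, adjusted p = 0.057), 7.84% of that of ZFP36 (adjusted p = 0.107) and 6.40% of that of SOCS3 (adjusted p = 0.241). The median over all probe sets was also 7.84%, and 38% of probe sets passed. The blocks also held 8.8% of the variance of drip loss and 6.98% of that of fat area. Block medians of CXCL2 lay between 6.99 and 7.65, those of ZFP36 between 9.12 and 10.01 and those of SOCS3 between 5.07 and 5.43. The slopes themselves were also compared between the series. The difference, higher minus lower, was -0.015 ± 0.12 for CXCL2, -0.20 ± 0.17 for ZFP36 and -0.00098 ± 0.046 for SOCS3 on drip loss, given without a test. On fat area it was -0.050 ± 0.13, 0.11 ± 0.17 and -0.051 ± 0.045 (limma adjusted p = 0.995, 0.989 and 0.987), and none of the 3 passed.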

How the data were processed

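Total RNA of 207 muscles was labelled as biotinylated cRNA and hybridised to 207 Affymetrix Porcine Genome Arrays, per the labels' protocols. Per the submitters' processing notes, GCOS 1.1.1 and PLIER were used. The deposited values were taken as log2 from their range, with a floor at 4 that held 1.43% of values; whether the authors scaled the arrays to each other is not stated, and no renormalization was applied. Of 24123 probe sets 188 controls were left out. Symbols came from the array annotation (10069 probe sets with 1 symbol, 198 with several, 13668 with none), and each gene was read from its brightest probe set.

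For every probe set limma 3.58.1 (lmFit, then eBayes) in R 4.3.3 fitted a linear model of log2 value on the trait in units of its SD, two-sided, with Benjamini-Hochberg adjustment over all 23935 and a threshold of 0.05. Intervals are at 95%. Correlations and permutations (100000, or 20000 for alternatives) used Python 3.11.15, numpy 2.4.6, scipy 1.17.1 and pandas 2.3.3. The limma fit on the traits was tested on simulated data, with slopes planted in noise drawn separately for each probe set. That noise lacks the variation that real probe sets share, and the correlations, lists and product term were not tested this way. The number of arrays limits the precision. The animals are separate pigs, but sire, slaughter day and array batch entered no fit.

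The genes and lists were chosen with earlier results of these data known. The rule for named genes took the 3 genes, the 8 highest and 4 lowest correlations of each, the 4 genes with the smallest p among those of each list that passed, and FOS, EGR1, DUSP1, NFKBIA, IL6, STAT3, SOCS1, CCL2 and CXCL8 whatever their values. It also took TNFAIP3, IL6ST, ZFP36L1, ZFP36L2, SOCS2, CISH and CXCR2, which no single-symbol probe set measured. AMCF-II, PPBP and the marker genes were added as neighbours or checks. Alternatives were quantile normalization, brighter probe sets only, title numbers (series, blocks), leaving out arrays that stand apart or extreme animals, 3' minus 5' control signal, 5 principal components, normal scores, the other trait, eBayes with trend and robust, the first component of 5 Y-linked probe sets, and, for lists, averaging a gene's probe sets. The higher number series alone was added after seeing the data.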

Additional observations from a re-analysis of the deposited data

How the results depend on the processing

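Recomputed values of the 3 genes and the list counts were set beside the main ones. A value counted as unchanged if its direction and its side of the threshold held, or if a list count stayed within 1.5 times. A drip loss slope of the 3 genes had to keep its sign and move by less than its SE in the main fit. Unchanged were 68 of 71 values for fat area, 13 of 14 for the product of the traits, 51 of 71 for drip loss and 32 of 36 for the correlations. In no setting did a list gene pass for fat area. Counts over all probe sets are not in these tallies and follow below. The slope of ZFP36 on fat area, 0.029, became -0.0088 with blocks as a covariate, -0.0013 in the lower series alone and -5.7e-06 with drip loss in the fit, all within its error. Its product term became 0.012 and the SOCS3 slope on drip loss 0.015 with 5 principal components, which also moved the drip loss slopes of CXCL2 to -0.24 and of ZFP36 to -0.12. The SOCS3 difference between number series became 0.0047 after quantile normalization. With 5 principal components the correlation of SOCS3 was 0.052 with CXCL2 and 0.078 with ZFP36, and in the higher series alone, chosen after seeing the data, it was -0.019 and 0.247 (adjusted permutation p = 0.246 for the last). The cause was not tested.

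The 4.61% of the 23935 probe sets called for drip loss became 0.623% with blocks, 0.823% in the lower series alone, 0.831% when the 24 low-correlation arrays were left out, 2.43% with the 3' minus 5' control signal and 0.0543% with 5 principal components. The 0.121% called for fat area became 0.380% with 5 principal components and 0% with the Y-linked component in limma, where 1169 probe sets had an unadjusted p under 0.05. The 0.00418% called for the product became 0.00836% after quantile normalization, when the low-correlation arrays were left out or with 5 principal components, 0.0125% with blocks, and 0% among brighter probe sets in limma, of which 170 had an unadjusted p under 0.05. The SOCS3 probe set is among the dimmer ones and had no value under that last filter. No paired analysis was possible because all animals form 1 group and no replicate numbers are shared between groups.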
